A study of Mus musculus with 56 samples.

Results

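The liver lobule has a metabolic gradient between the portal vein and the central vein. The 30 genes followed here mark its ends, in livers of male mice that carry 2 copies of the proline form (PP), 1 copy of each form (PL) or 2 copies of the leucine form (LL) of GKRP, the protein that binds glucokinase in the hepatocyte nucleus. The members were listed by name: 14 pericentral markers, from Glul to Lhpp, and 16 periportal markers, from Cyp2f2 to Alb, of 52230 genes in all. All 30 passed the filter on low counts in each comparison.

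Hepatocytes near the central vein receive Wnt ligands and R-spondin from the endothelium of that vein, and beta-catenin with its TCF/LEF partners maintains their glutamine synthesis and cytochrome P450 metabolism. Hepatocytes near the portal vein receive blood rich in oxygen and nutrients, and are known for amino acid catabolism, gluconeogenesis and the secretion of plasma proteins. Glucokinase is itself more abundant towards the central vein, and the comparisons ask whether markers of either end differed with the genotype or with a glucokinase activator (GKA).

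All mice were males of the GCKR-P446L-EMI-B6N knock-in line and were fed a diet high in fat and sugar for 20 weeks, so no group shows the lobule on a regular diet. The groups without GKA were PP (n = 10), PL (n = 8) and LL (n = 10), and those given GKA at 3 mg/kg were PP (n = 10), PL (n = 8) and LL (n = 10). Whole liver was sequenced, so position in the lobule was not measured, and fewer cells of a zone and less RNA per cell cannot be told apart. The labels do not say how the mice relate by litter or cage, and p-values measure the spread between these mice.

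Reads assigned to genes were between 5.18 M and 8.08 M per mouse (M, 1e6 reads), with a median of 6.55 M. Levels are given as CPM, the estimated reads of a gene relative to the effective size of the library. The 5 hepatocyte markers summed to between 25176 and 42475 CPM, and the adipocyte gene Adipoq was at 0 in all groups. PP mouse 7 was left out of the main comparisons, as the study did, which leaves 9 mice in PP without GKA. Of the 14 pericentral markers, 7 were below the range of the other PP mice in that mouse. Of the 16 periportal markers, 3 were below that range and 3 above it. The labels give no batch or time of day, and a component of 16 clock genes (described with its own results) differed between the groups. Without GKA it was -0.63 ± 0.554 in PP, 0.57 ± 0.799 in PL and 0.52 ± 0.787 in LL (mean ± SD). With GKA it was -0.88 ± 1.296 in PP, 0.55 ± 0.542 in PL and 0.03 ± 0.757 in LL. Its part in the genotype comparisons was examined only as a covariate.

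On the TPM scale, which takes transcript length into account, the members' median levels over mice reached from the most abundant liver transcripts to the scarce. Albumin (Alb), the main plasma protein, had 35216 TPM, and the ethanol-oxidizing P450 Cyp2e1 had 2319 TPM. The retinal dehydrogenase Aldh1a1 had 465 TPM, Cyp2f2, a periportal P450, had 276 TPM, and glutamine synthetase (Glul) had 271 TPM. At the low end were the R-spondin receptor Lgr5 (0.496 TPM), the Wnt feedback gene Axin2 (0.824 TPM), the ammonia channel Rhbg (1.19 TPM), E-cadherin (Cdh1, 1.23 TPM) and the transcription factor Tbx3 (1.71 TPM). The lowest estimate in any mouse was 4.46 reads for Rhbg, 4.69 for Cdh1 and 6.08 for Lgr5, so these genes carry more counting error than the rest.

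The zone balance summarises each mouse as the mean log2 CPM of the pericentral markers minus that of the periportal markers. It was -1.18 ± 0.188 in PP, -1.04 ± 0.245 in PL and -1.19 ± 0.236 in LL without GKA (mean ± SD). With GKA it was -1.11 ± 0.418 in PP, -0.95 ± 0.298 in PL and -1.05 ± 0.227 in LL. Differences between group means ran from -0.15 to 0.15 over the 9 comparisons, each smaller than the pooled SD of its groups, which was between 0.215 and 0.37. No test was made of this score, since its members were listed with results in view.

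**Figure D1:**
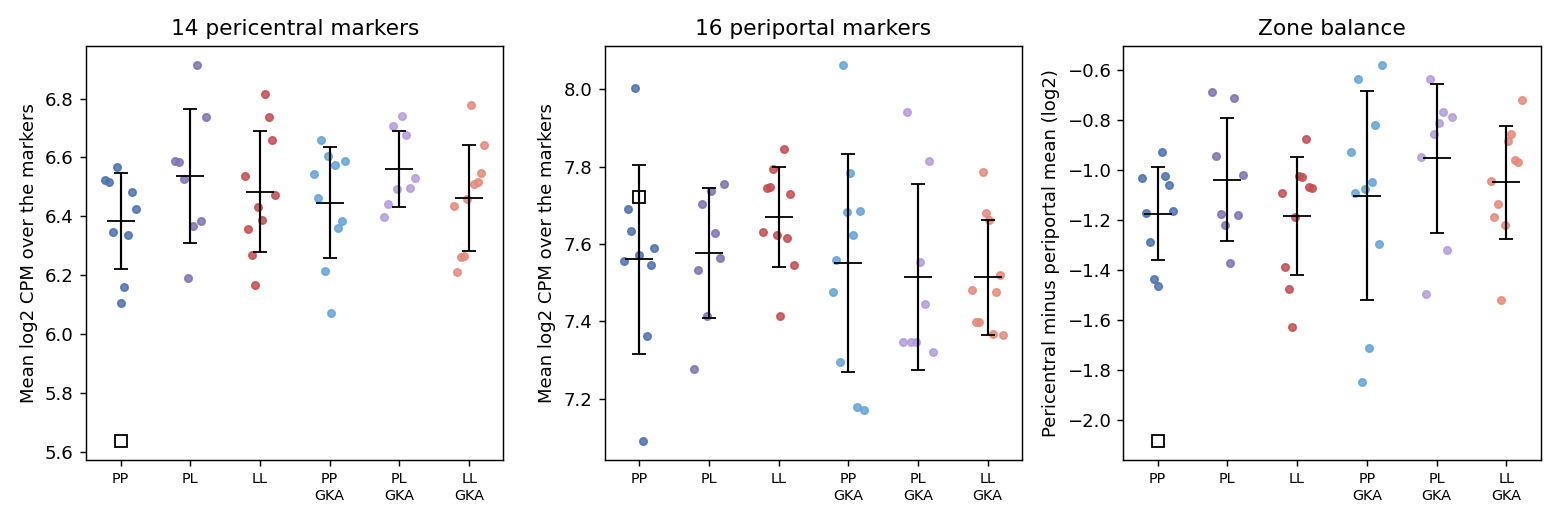
Mean log2 CPM of the 14 pericentral markers, of the 16 periportal markers, and their difference (the zone balance), in 3 panels with 1 point per mouse by genotype and GKA. Bars are the mean ± SD without PP mouse 7, the open square, whose pericentral mean of 5.64 lay below all other mice, and the ranges of the 6 groups overlap.

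Individual mice lay far out in both directions. PP mouse 14 with GKA had the lowest balance (-1.85), with the highest level in its group for 9 periportal markers and the lowest for 4 pericentral markers. PP mouse 20 of the same group had the highest balance (-0.58). In PP without GKA, mouse 6 had the lowest level of 9 periportal markers and mouse 4 the highest of 7. PP with GKA therefore held both ends of the 55 mice analysed.

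No member was called in any of the 9 pairwise comparisons by edgeR, where a gene is called at an adjusted p under 0.05 together with a change of 1.3-fold or more up, or to 0.7-fold or less. Few genes were called at all. The share was 0.0854% for LL against PP, 0.151% for PL against PP and 0.00942% for LL against PL without GKA. With GKA it was 0.239% for LL against PP and 0% for PL against PP and for LL against PL, and for GKA against none it was 0% in each genotype. A test of any difference among the 6 groups called 1.88% of genes and no member. Of a list of 11 further periportal genes, 1 was called for LL against PL without GKA, the only gene called in that comparison. Pck1 and G6pc1 of that list were higher in LL there at an unadjusted p of edgeR below 0.05.

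**Figure D2:**
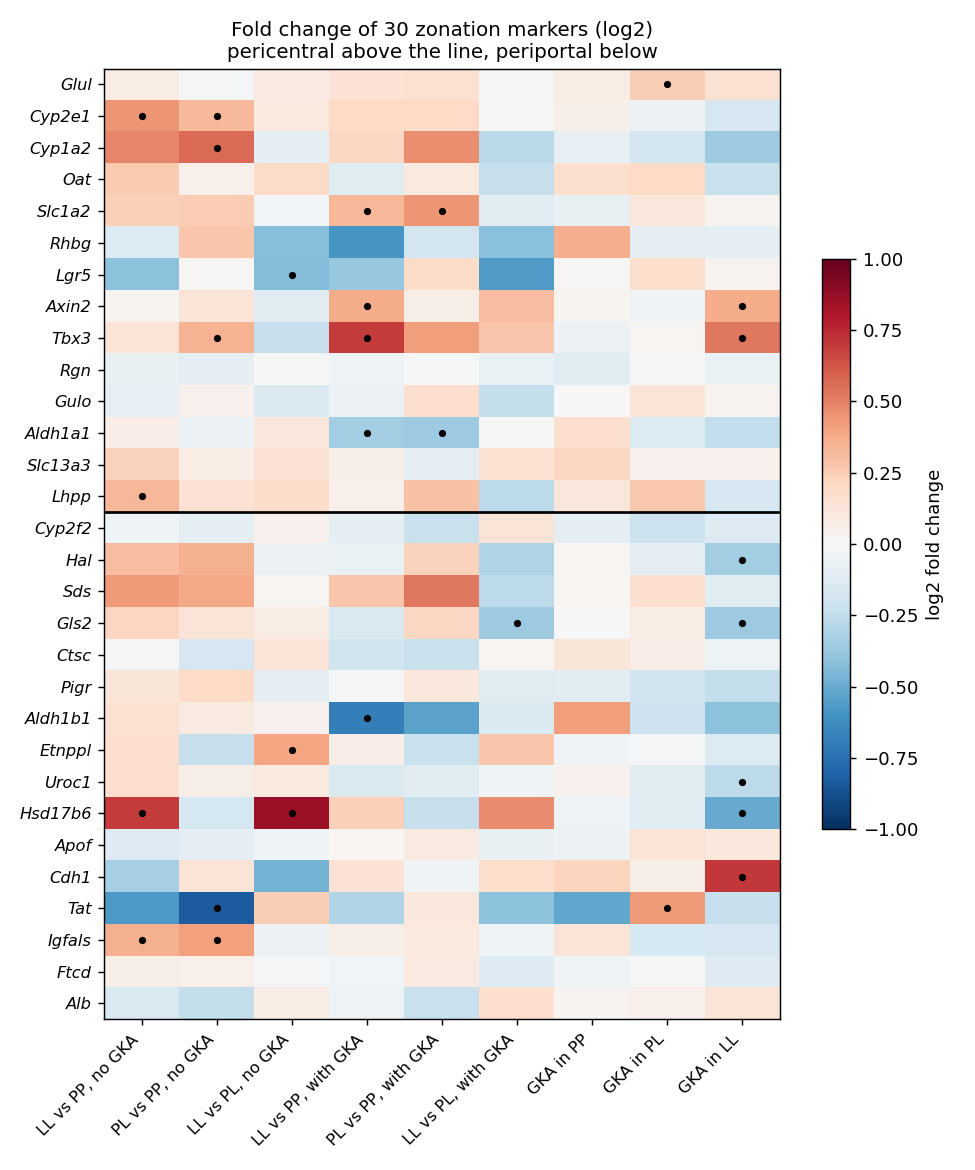
Log2 fold change (colour) of the 30 members (rows, by zone) in the 9 comparisons (columns), with a dot where the unadjusted p of edgeR is below 0.05. GKA in LL has 7 dots and GKA in PP has 0, and no cell met the rule for a called gene.

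At an unadjusted p below 0.05 there were 4 members for LL against PP without GKA, beside 11.8% of all genes (6.15% higher and 5.69% lower). All 4 were higher in LL: Cyp2e1 and the phosphatase gene Lhpp of the pericentral list, and Hsd17b6 and Igfals of the periportal list. The median log2 fold change was 0.10 over pericentral markers, 0.14 over periportal markers and 0.01 over all genes, so both zones had a small positive median. Of the blood cell markers, 5 of 5 had a positive log2 fold change (median 0.56, 0 called by edgeR, 2 below an unadjusted p of 0.05). They summed to between 286 and 712 CPM in PP and between 395 and 1650.4 CPM in LL, and their part in the result was not tested. The sinusoidal endothelium markers were negative in 6 of 6 (median -0.09, 0 called by edgeR, 0 below an unadjusted p of 0.05), and their part was not tested.

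For PL against PP there were 5 members, beside 10.1% of all genes (5.07% higher and 5.02% lower). Tbx3, Cyp2e1, Cyp1a2 and Igfals were higher in PL, and tyrosine aminotransferase (Tat) was lower. For LL against PL there were 3, beside 4.58% of all genes (2.02% higher and 2.56% lower): Etnppl, a phospholyase that releases ammonia, and Hsd17b6 were higher in LL, and Lgr5 was lower. LL and PL are compared with the same PP mice, so Cyp2e1 and Igfals, found in both comparisons, do not count as repeats. The same holds below for any gene found in comparisons that share a group.

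With GKA there were 5 members for LL against PP, beside 10.4% of all genes (5.27% higher and 5.11% lower). Axin2, Tbx3 and the glutamate transporter Slc1a2, all pericentral, were higher in LL, and the aldehyde dehydrogenases Aldh1a1 (pericentral) and Aldh1b1 (periportal) were lower. By sign, 8 of the 14 pericentral markers were positive and 6 negative (median 0.05, beside 0.00 over all genes). A list of 18 further pericentral genes had 5 positive and 13 negative values (median -0.15, 0 called by edgeR). Of these, Cyp2c29, Lect2 and Cyp3a11 were lower at an unadjusted p below 0.05 and 0 were higher. Of the macrophage markers, 8 of 8 had a negative log2 fold change there (median -0.23, 0 called by edgeR, 0 below an unadjusted p of 0.05), with sums between 154 and 342 CPM in PP and between 139 and 316 CPM in LL, and their part in the result was not tested. For PL against PP with GKA there were 2, beside 8.19% of all genes (3.89% higher and 4.31% lower), with Slc1a2 higher and Aldh1a1 lower. Of the stellate cell markers, 6 of 6 tested had a negative log2 fold change in that comparison (median -0.29, 0 called by edgeR), and 4 were below an unadjusted p of 0.05 (Col1a1, Dcn, Pdgfrb and Col3a1). The list of 7 summed to between 131 and 222 CPM in PP and between 102 and 209.5 CPM in PL, and its part in the result was not tested. For LL against PL with GKA there was 1, Gls2, which was lower, beside 8.6% of all genes (3.79% higher and 4.8% lower). The log2 fold change of Gls2 was -0.36 (SE 0.14, unadjusted p of edgeR 0.0159, adjusted p 0.462). The stellate cell markers were positive there in 6 of 6 tested (median 0.36, 0 called by edgeR, 1 below an unadjusted p of 0.05), with sums between 118 and 298 CPM in LL, and their part in the value of Gls2 was not tested.

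Glul makes glutamine in the last hepatocytes before the central vein. It ranged from 456 to 802 CPM in PP (median 673 CPM), from 507 to 835 CPM in PL (median 599 CPM) and from 560 to 902 CPM in LL (median 671 CPM). With GKA it ranged from 384 to 846 CPM in PP (median 738 CPM), from 595 to 872 CPM in PL (median 782 CPM) and from 560.2 to 985 CPM in LL (median 737 CPM). The ranges overlapped among all groups. The log2 fold change for LL against PP without GKA was 0.07 (SE 0.10, unadjusted p 0.488, adjusted p 0.836), and the smallest unadjusted p was that of GKA in PL, at 0.25 (SE 0.12, unadjusted p 0.046, adjusted p 0.999), or 0.09 (SE 0.18) with a transcript length offset.

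Slc1a2 imports glutamate into the cells that make glutamine, and ornithine aminotransferase (Oat) forms glutamate there. Slc1a2 ranged from 37.6 to 81.3 CPM in PP (median 58.9 CPM), from 49.0 to 109 CPM in PL (median 63.9 CPM) and from 44.7 to 112 CPM in LL (median 62.6 CPM). With GKA it ranged from 31.3 to 72.7 CPM in PP (median 61.2 CPM), from 70.2 to 99.6 CPM in PL (median 76.0 CPM) and from 52.1 to 105 CPM in LL (median 70.9 CPM). With GKA the PL mice lay close together above most PP mice, and 8 of the 10 PP mice were below every PL mouse. This log2 fold change was 0.44 (SE 0.13, unadjusted p 0.00323, adjusted p 0.306), or 0.22 (SE 0.34) with a transcript length offset. Oat ranged from 286 to 821 CPM in PP (median 486 CPM) and from 343 to 918 CPM in LL (median 572 CPM), with much overlap, and its log2 fold change was 0.26 (SE 0.21, adjusted p 0.682).

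Cyp2e1 and Cyp1a2 are pericentral P450 enzymes that oxidize ethanol and aromatic amines. Cyp2e1 ranged from 3419 to 5369 CPM in PP (median 4794 CPM), from 4138 to 8744 CPM in PL (median 5762 CPM) and from 3400.1 to 8615 CPM in LL (median 6707 CPM). Of the 10 LL mice, 7 were above every PP mouse, while the lowest LL mouse was below the lowest PP mouse. Its log2 fold change against PP was 0.44 (SE 0.16, unadjusted p 0.0119, adjusted p 0.251) in LL and 0.33 (SE 0.13, unadjusted p 0.0229, adjusted p 0.4) in PL. With the clock component as a covariate the value in LL was 0.21 (SE 0.20). With GKA the medians were 5331 CPM for PP, 5666 CPM for PL and 5593 CPM for LL, and LL against PP had a log2 fold change of 0.20 (SE 0.16, adjusted p 0.737).

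Cyp1a2 ranged from 76.9 to 281 CPM in PP (median 159.8 CPM), from 140.1 to 403 CPM in PL (median 213 CPM) and from 115 to 437 CPM in LL (median 184 CPM). The groups overlapped, and 3 PP mice were below every PL mouse. PL against PP had a log2 fold change of 0.57 (SE 0.26, unadjusted p 0.0427, adjusted p 0.47), and of 1.13 (SE 0.34) with the length offset.

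**Figure D3:**
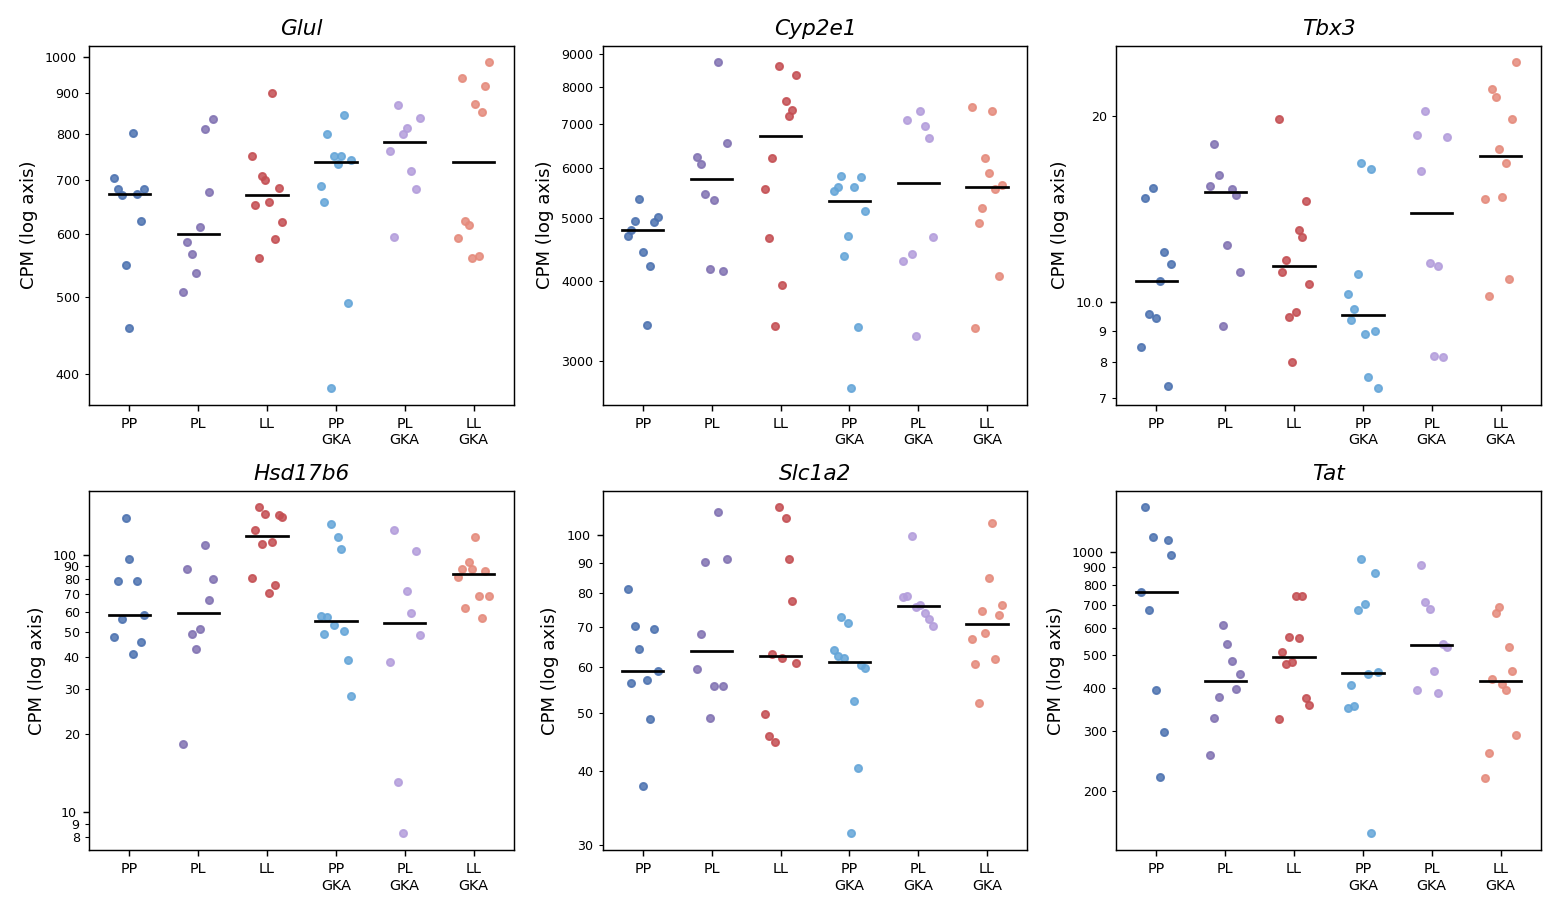
CPM on a log axis of Glul, Cyp2e1, Tbx3, Hsd17b6, Slc1a2 and Tat, with 1 point per mouse and a bar at each group's median. Tbx3 has its highest median in LL with GKA (17.2 CPM, against 9.55 CPM in PP with GKA), Hsd17b6 has its highest in LL without GKA, and the ranges overlap.

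TCF/LEF factors act on pericentral genes, so promoter windows from RefSeq (GRCm38.p6, 250 bases before to 50 bases after the start) were searched for the core of their site, CTTTGA, on both strands (TCAAAG on the other). Windows were matched for 20 of the 30 members, and not for Rhbg, Lgr5, Tbx3, Rgn, Gulo, Lhpp, Sds, Gls2, Apof and Cdh1. The core was found for 4 of 8 pericentral members (Cyp2e1, Cyp1a2, Slc1a2 and Aldh1a1) and 3 of 12 periportal members (Hal, Aldh1b1 and Uroc1), and for 18.2% of the 27025 genes with a window. The E-box CACGTG, which clock factors bind, was found for Slc13a3 and Pigr and for 8.09% of genes. The 250 bases before the start are shown for Cyp2e1 and Cyp1a2, whose levels were correlated over mice, and for Slc1a2, which holds the core 2 times. Aldh1a1 holds it 3 times in its window farther upstream and 0 times in the other. It is not shown, since its reads may be shared with a paralogue. The 3 stretches lie at chr7:140763569-140763818 (plus strand), chr9:57683656-57683905 (minus strand) and chr2:102706188-102706437 (plus strand), are written 5' to 3' on the gene's strand, and have the core or its reverse complement in capitals.
Cyp2e1: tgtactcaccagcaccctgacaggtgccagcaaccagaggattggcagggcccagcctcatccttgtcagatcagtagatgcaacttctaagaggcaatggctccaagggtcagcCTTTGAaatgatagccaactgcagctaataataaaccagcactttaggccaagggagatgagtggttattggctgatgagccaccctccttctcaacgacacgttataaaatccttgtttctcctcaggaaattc
Cyp1a2: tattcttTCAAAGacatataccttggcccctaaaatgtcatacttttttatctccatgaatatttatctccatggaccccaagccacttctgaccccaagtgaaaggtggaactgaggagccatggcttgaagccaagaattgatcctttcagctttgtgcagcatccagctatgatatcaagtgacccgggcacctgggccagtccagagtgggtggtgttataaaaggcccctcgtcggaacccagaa
Slc1a2: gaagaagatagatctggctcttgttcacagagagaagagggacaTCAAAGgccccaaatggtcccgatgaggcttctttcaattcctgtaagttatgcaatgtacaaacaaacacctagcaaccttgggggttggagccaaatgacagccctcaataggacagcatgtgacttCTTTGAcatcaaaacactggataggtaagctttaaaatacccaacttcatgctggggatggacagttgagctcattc
The core begins 135 bases before the start of the window's transcript in Cyp2e1, 243 in Cyp1a2, and 206 and 77 in Slc1a2. These starts on GRCm38.p6 were not matched to the main starts of the genes on GRCm39. A window, that of Slc1a2 included, may therefore lie at an alternative start. A match describes these letters and is not evidence of binding.

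Tbx3, Axin2 and Lgr5, which respond to Wnt, were at the low end of the members' levels. Tbx3, a repressor activated by beta-catenin in liver, ranged from 7.32 to 15.3 CPM in PP (median 10.8 CPM), from 9.16 to 18.0 CPM in PL (median 15.1 CPM) and from 8.01 to 19.8 CPM in LL (median 11.5 CPM). With GKA it ranged from 7.27 to 16.8 CPM in PP (median 9.55 CPM), from 8.17 to 20.4 CPM in PL (median 13.9 CPM) and from 10.2 to 24.4 CPM in LL (median 17.2 CPM). With GKA, 10 of 10 LL mice were above the PP median and 5 were above every PP mouse. This log2 fold change was 0.70 (SE 0.18, unadjusted p 0.000577, adjusted p 0.0862) by edgeR. DESeq2 called it (adjusted p 0.0183), as did a fit of all 6 groups (adjusted p 0.0445), and over all alternatives the adjusted p lay between 0.0183 and 0.597. Tbx3os1 and Tbx3os2 overlap its exons on the opposite strand, and since no strand setting of the counting is stated, their reads cannot be told apart. Exons of Glul, Slc1a2, Lgr5, Axin2, Gulo, Aldh1a1, Cyp2f2 and Igfals also overlap annotated genes on the opposite strand.

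Axin2, which limits beta-catenin, ranged from 3.69 to 6.07 CPM in LL (median 4.70 CPM) and from 2.54 to 6.15 CPM in PP (median 3.44 CPM) with GKA, and from 2.09 to 6.77 CPM in LL (median 3.49 CPM) without it. All 10 LL mice with GKA were above the median of PP with GKA and of LL without it, but none was above every mouse of those groups. Its log2 fold change for LL against PP with GKA was 0.37 (SE 0.15, unadjusted p 0.019, adjusted p 0.348), and 0.81 (SE 0.33) with the length offset. Lgr5 was at 2.37 ± 0.738 CPM for LL and 3.20 ± 0.643 CPM for PL without GKA (mean ± SD), a log2 fold change of -0.43 (SE 0.18, unadjusted p 0.0283, adjusted p 0.966). With GKA, Lgr5 had a log2 fold change of -0.38 (SE 0.27, adjusted p 0.71) for LL against PP, of opposite sign to Tbx3 and Axin2. Stellate cell and sinusoidal endothelium markers had positive log2 fold changes for GKA in LL in 6 of 6 and 6 of 6 tested genes (medians 0.27 and 0.20, 0 called by edgeR, 0 below an unadjusted p of 0.05). The stellate markers summed to between 107 and 179 CPM without and between 118 and 298 CPM with GKA, the endothelial ones to between 81.5 and 186 CPM and between 79.3 and 188 CPM, and their part in the values of Tbx3 and Axin2 was not tested.

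Of 38 Wnt ligands, receptors and pathway genes, 30 were tested for LL against PP and 0 were called by edgeR, without or with GKA. At an unadjusted p below 0.05 there were 2 without and 1 with GKA, beside 11.8% and 10.4% of all genes. Of 6 markers of central vein endothelium, which include ligands, 2 passed the filter on low counts without GKA and 1 with it, so most were not tested.

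Aldh1a1 ranged from 796 to 1733 CPM in PP (median 1478 CPM), from 771 to 1370.5 CPM in PL (median 1158 CPM) and from 718 to 1391 CPM in LL (median 1139 CPM) with GKA. Of the PP mice, 9 of 10 were above every PL mouse, and the exception was mouse 14, which had the lowest zone balance. Against PP the log2 fold change was -0.36 (SE 0.14, unadjusted p 0.0192, adjusted p 0.464) in PL and -0.35 (SE 0.13, unadjusted p 0.0122, adjusted p 0.303) in LL. Without GKA the medians were 1254 CPM for PP, 1303 CPM for PL and 1366 CPM for LL. Its paralogue Aldh1a7 is nearly identical, so reads may be divided between them and these values are uncertain.

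The other pericentral members are regucalcin (Rgn), the vitamin C enzyme Gulo, the dicarboxylate transporter Slc13a3, Rhbg and Lhpp. Over the 55 mice Rgn ranged from 571 to 1403 CPM, Gulo from 222 to 595 CPM, Slc13a3 from 3.76 to 17.9 CPM, Rhbg from 0.616 to 7.66 CPM and Lhpp from 20.6 to 60.7 CPM. Only Lhpp among them was below an unadjusted p of 0.05 in a pairwise comparison, with a log2 fold change for LL against PP without GKA of 0.34 (SE 0.15, unadjusted p 0.0333, adjusted p 0.366). It was 0.16 (SE 0.18) with the clock component as a covariate and 0.09 (SE 0.19) with a transcript length offset. Rhbg shares exons with Gm38392 on the same strand, so its reads may be divided with that gene.

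Hsd17b6, a periportal oxidoreductase of steroids and retinoids, had the widest spread of group means among the members. It ranged from 41.0 to 138 CPM in PP (median 58.1 CPM), from 18.3 to 109 CPM in PL (median 59.1 CPM) and from 71.2 to 152 CPM in LL (median 118 CPM). With GKA it ranged from 28.3 to 131 CPM in PP (median 55.3 CPM), from 8.25 to 125 CPM in PL (median 54.0 CPM) and from 56.8 to 116 CPM in LL (median 83.8 CPM). All 10 LL mice without GKA were above the medians of PP and of PL, and 7 were above every PL mouse. The log2 fold change was 0.70 (SE 0.21, unadjusted p 0.00363, adjusted p 0.163) for LL against PP and 0.86 (SE 0.25, unadjusted p 0.00269, adjusted p 0.583) for LL against PL. With the length offset these were 0.45 (SE 0.26) and 0.43 (SE 0.33).

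Tat, which starts tyrosine breakdown, ranged from 219.5 to 1345 CPM in PP (median 764 CPM), from 255 to 613 CPM in PL (median 419 CPM) and from 326 to 742 CPM in LL (median 492.7 CPM). All 8 PL mice were below the PP median, yet the lowest mouse of both groups was a PP mouse. PL against PP had a log2 fold change of -0.83 (SE 0.30, unadjusted p 0.0126, adjusted p 0.331), and of -1.25 (SE 0.43) with the clock covariate. Etnppl ranged from 43.7 to 76.8 CPM in PL (median 55.7 CPM) and from 55.5 to 103 CPM in LL (median 78.1 CPM), with 6 LL mice above every PL mouse and a log2 fold change of 0.39 (SE 0.12, unadjusted p 0.00384, adjusted p 0.669), which turned to -0.04 (SE 0.32) with the length offset. Igfals, the carrier subunit of circulating insulin-like growth factors, ranged from 28.4 to 51.7 CPM in PP (median 46.5 CPM), from 31.8 to 73.1 CPM in PL (median 55.0 CPM) and from 26.1 to 74.4 CPM in LL (median 56.8 CPM). Of the LL mice, 6 of 10 were above every PP mouse, and the log2 fold change was 0.36 (SE 0.17, unadjusted p 0.044, adjusted p 0.404).

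Hal, Sds and Gls2 start the breakdown of histidine, serine and glutamine. Hal ranged from 82.5 to 272 CPM in PP (median 143 CPM), from 141 to 264 CPM in PL (median 179 CPM) and from 101 to 256 CPM in LL (median 178 CPM). Sds ranged from 24.3 to 96.6 CPM in PP (median 51.6 CPM), from 33.7 to 113 CPM in PL (median 79.7 CPM) and from 32.2 to 143 CPM in LL (median 83.0 CPM). Gls2 ranged from 94.8 to 305 CPM in PP (median 156 CPM), from 144 to 231 CPM in PL (median 185 CPM) and from 114 to 299 CPM in LL (median 193 CPM). The groups overlapped for each gene, and for LL against PP the log2 fold change of Sds was 0.42 (SE 0.28, adjusted p 0.597) and that of Hal was 0.31 (SE 0.18, adjusted p 0.538). Exons of Sds overlap Plbd2 and exons of Gls2 overlap Spryd4, each on the opposite strand.

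Cyp2f2 was at 713 ± 86.9 CPM for PP, 668 ± 108 CPM for PL and 694 ± 129 CPM for LL without GKA (mean ± SD), with a log2 fold change for LL against PP of -0.04 (SE 0.11, adjusted p 0.927). Alb was at 83086 ± 10632 CPM for PP, 70435 ± 12136 CPM for PL and 74903 ± 14657 CPM for LL, with a log2 fold change of -0.15 (SE 0.13, adjusted p 0.701). For both genes the difference between LL and PP was smaller than the SD of either group. The means of Alb in PL and PP lay farther apart than the SD of either group. That log2 fold change was -0.24 (SE 0.13, unadjusted p of edgeR 0.0746, adjusted p 0.551). Ftcd, of histidine and folate metabolism, ranged from 246 to 387 CPM over the 55 mice, and the apolipoprotein Apof from 345 to 651 CPM. The lysosomal protease Ctsc ranged from 21.5 to 61.2 CPM, and Pigr, which carries immunoglobulin A into bile, from 460.2 to 1317 CPM. Macrophages express Ctsc too: 8 macrophage markers summed to between 80.3 and 558 CPM over mice, and their part in its values was not tested.

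GKA was compared with no GKA within each genotype. In PP, 0 members were below an unadjusted p of 0.05, beside 3.56% of all genes (1.5% higher and 2.06% lower). In PL there were 2, Glul and Tat, both higher with GKA, beside 3.18% of all genes (1.47% higher and 1.71% lower). The macrophage markers had a positive log2 fold change for GKA in PL in 8 of 8 (median 0.30, 0 called by edgeR, 0 below an unadjusted p of 0.05). Their part in the result was not tested. In LL there were 7, beside 6.15% of all genes (2.95% higher and 3.2% lower): Axin2, Tbx3 and Cdh1 were higher with GKA, and Hal, Hsd17b6, Gls2 and Uroc1, the enzyme after Hal in histidine breakdown, were lower. With a transcript length offset, or with the clock component as a covariate, the number in LL was 4.

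For GKA in LL, no member of either list was called. Of the 16 periportal markers, 4 were lower and 1 was higher at an unadjusted p below 0.05. Counted by sign alone, 13 had a negative and 3 a positive log2 fold change, with a median of -0.15, beside 0.00 over all genes. Of the 14 pericentral markers, 7 were positive and 7 negative, with a median of -0.02. Hsd17b6 was below the median of LL without GKA in 10 of 10 mice, with a log2 fold change of -0.50 (SE 0.15, unadjusted p 0.00317, adjusted p 0.616). Hal, Gls2 and Uroc1 were each below it in 9 of 10 mice, with log2 fold changes of -0.34, -0.36 and -0.26 and adjusted p of 0.783, 0.776 and 0.766. Uroc1 ranged from 236 to 448 CPM in LL without GKA (median 357 CPM) and from 223 to 368 CPM in LL with GKA (median 290 CPM). With the length offset the value of Gls2 was -0.67 (SE 0.23). For GKA in LL, the list of 11 further periportal genes had a median of -0.13 and one of 18 further pericentral genes a median of -0.21 (8 of 11 and 14 of 18 negative), with 0 called by edgeR and 1 and 2 below an unadjusted p of 0.05.

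Cdh1, which joins hepatocytes to each other, was 1 of the 3 periportal markers with a positive value. It ranged from 1.83 to 8.29 CPM in LL (median 6.76 CPM) without GKA, and with GKA from 2.21 to 22.2 CPM in LL (median 10.3 CPM), where 7 of 10 mice were above every mouse without it. The log2 fold change was 0.71 (SE 0.28, unadjusted p 0.02, adjusted p 0.778), against 0.29 (SE 0.33) with the length offset and 0.49 (SE 0.29) with the clock covariate. Bile duct cells also express Cdh1: 5 bile duct markers summed to between 6.93 and 42.3 CPM in LL and between 9.43 and 72.8 CPM in LL with GKA, and their part in the result was not tested.

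Whether the GKA effect differed between LL and PP was tested as an interaction, which called 0% of genes. Below an unadjusted p of 0.05 were 4 members, beside 5.75% of all genes: Tbx3, at 0.58 on the log2 scale (SE 0.24, edgeR adjusted p 0.868), and Aldh1a1, Aldh1b1 and Uroc1, at -0.42, -0.83 and -0.31. Averaged over genotypes, GKA called 0% of genes, and Glul, Pigr and Cyp2f2 were below an unadjusted p of 0.05, beside 5.28% of all genes. In the test of any difference among the 6 groups, Tbx3, Hsd17b6, Tat and Aldh1a1 were below it, beside 12.7% of all genes, and the adjusted p of Tbx3 was 0.0737. Aldh1b1, a mitochondrial aldehyde dehydrogenase, ranged from 18.8 to 95.3 CPM in PP (median 32.9 CPM) and from 12.0 to 47.6 CPM in LL (median 21.5 CPM) with GKA, and its highest value was that of PP mouse 14.

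Within groups, the members varied more between mice than the median gene. The median SD on the log2 scale was 0.363 over the 11 pericentral and 0.386 over the 15 periportal markers with a mean of at least 10 CPM, beside 0.238 over the 5647 genes of that level. Ftcd (0.156), Apof (0.195) and Uroc1 (0.204) were steady, and Hsd17b6 (0.743), Sds (0.654), Tat (0.623) and Cyp1a2 (0.597) varied widely.

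For 12 pairs of members, correlations were computed over 55 mice after the group means had been removed. Cyp2e1 and Cyp1a2 had a Pearson's r of 0.727 and a Spearman's rho of 0.733 (each with permutation p 1e-05 and 6e-05 adjusted over the pairs, the smallest these permutations can give), with r from 0.698 to 0.894 within groups. Sds and Gls2 had an r of 0.742 and a rho of 0.728 (permutation p 1e-05, adjusted 6e-05, for each). Hal and Sds had an r of 0.542 (permutation p 7e-05, adjusted p 0.00028) and a rho of 0.501 (adjusted p 0.00084). Without the 2 mice farthest from the median of the first gene, r was 0.737, 0.698 and 0.491. These 3 relations were positive in all 6 groups and stayed past the threshold on each other scale tried.

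Glul and Rhbg had an r of 0.446 (permutation p 0.00104, adjusted p 0.00312), a rho of 0.426 and an r of 0.403 without the 2 farthest mice, but 0.222 on the log2 TPM scale, where it missed the threshold, and -0.0272 on the centred TPM scale. It was positive in 5 of the 6 groups, from -0.295 to 0.783. Sds and Tat had an r of 0.423 (permutation p 0.0033, adjusted p 0.00792), a rho of 0.397 and an r of 0.421 without the 2 farthest mice, and missed it on the centred TPM scale (r 0.234). This relation too was positive in 5 of the 6 groups, from -0.546 to 0.768. The other 7 pairs missed the threshold for r. Cyp2f2 and Hal had an r of 0.288 (permutation p 0.032, adjusted p 0.0641), though a rho of 0.36 (adjusted p 0.018). Glul had an r of -0.187 with Cyp2e1 (permutation p 0.178, adjusted p 0.297, rho -0.181), and its r with Oat, Slc1a2 and Cyp2f2, with those of Lgr5 with Axin2 and Cyp2e1 with Cyp2f2, lay between -0.12 and 0.19, with adjusted permutation p from 0.297 to 0.661.

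**Figure D4:**
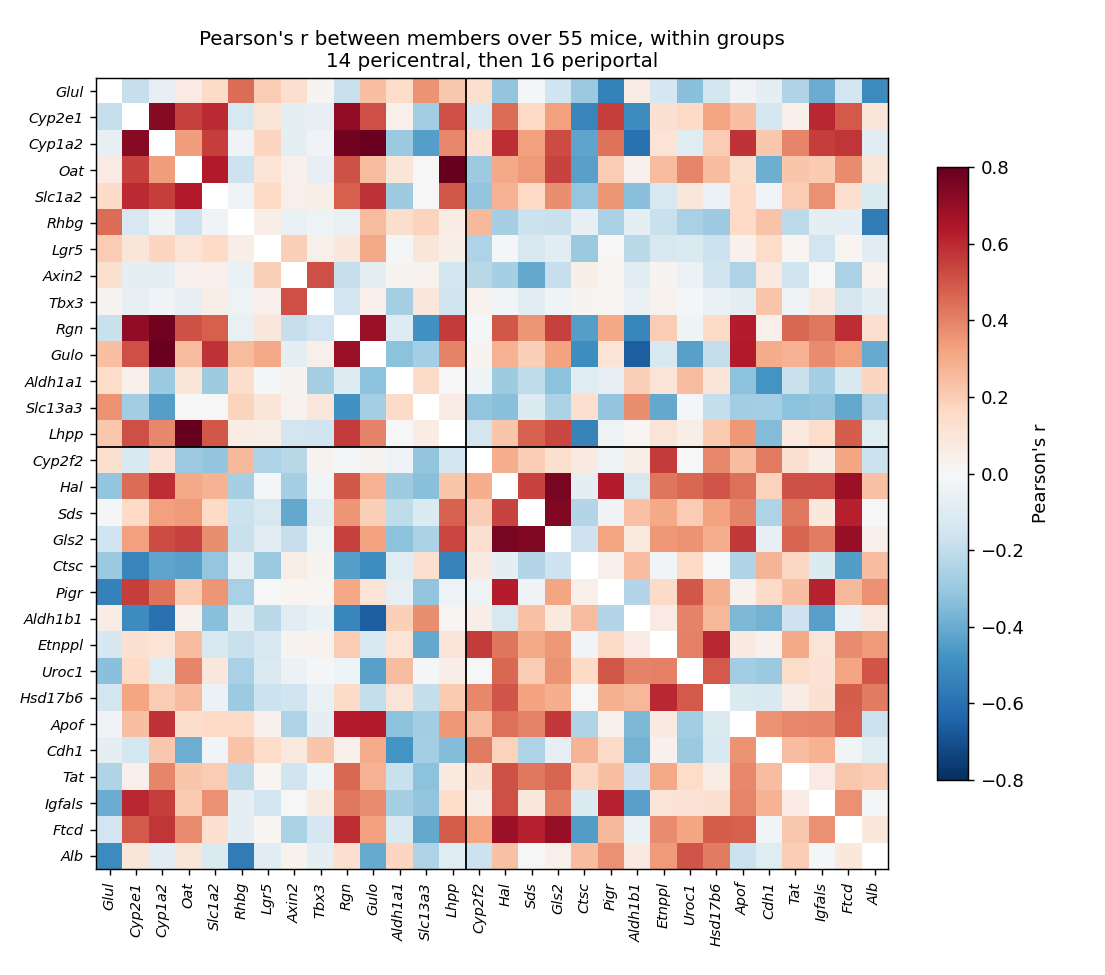
Pearson's r (colour, red positive and blue negative) between all pairs of members over 55 mice after removing group means, pericentral markers first. Cyp1a2 is red with Gulo (r = 0.788) and Rgn (0.769), Hal with Gls2 (0.762), and Glul is blue with Pigr (-0.538).

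Over all pairs, the median r was 0.06 within the pericentral list (91 pairs, 65.9% positive), 0.226 within the periportal list (120 pairs, 75.8% positive) and -0.01 between the lists (224 pairs, 47.3% positive). All pairs share the same 55 libraries, their depth and their normalization. For each member but Aldh1a1, Slc13a3 and Apof, the most alike member was of its own list. By median r, however, Cyp2e1, Cyp1a2, Oat and Rgn were closer to the periportal list (0.159, 0.272, 0.217 and 0.256) than to their own (0.094, 0.169, 0.112 and 0.093). For all other members the median r was higher with their own list. The lowest r were those of Aldh1b1 with Gulo (-0.661) and Cyp1a2 (-0.596), of Rhbg with Alb (-0.56) and of Glul with Pigr, each across the lists.

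The highest r of all pairs, 0.797, was that of Oat and Lhpp, which are neighbours on chromosome 7 (GRCm39). Oat lies at 132159153 to 132191517 on the minus strand and Lhpp at 132212350 to 132308476 on the plus strand, so they are transcribed away from each other, from main starts 34.2 kb apart. Of the 6 genes of at least 1 CPM within 1000 kb of Oat, Lhpp had the highest r, and the others lay between -0.28 and 0.21. On the centred TPM scale the r of Oat and Lhpp was 0.489. Gls2, Apof and Hsd17b6 lie together on chromosome 10. Gls2 and Apof, 73.5 kb apart, had an r of 0.567, and 0.215 on the centred TPM scale. Gls2 and Hsd17b6, 187 kb apart, had an r of 0.293, and 0.361 on the centred TPM scale. Hsd17b6 and Apof, 260.4 kb apart, had an r of -0.113, and -0.246 on the centred TPM scale.

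The clock component is the first principal component of 16 clock genes, holds 61.1% of their variance, and is higher in mice with more Dbp, a clock output gene that is rhythmic in liver. In a fit over 55 mice with the groups as further terms, 5 of the 30 members had an adjusted p below 0.05, beside 19.5% of all genes (10.2% higher and 9.33% lower). The clock genes were left out of that share, and the members were not. Sds, Lhpp and Ftcd rose with the component, and Cdh1 and Ctsc fell.

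Sds rose by 0.47 on the log2 scale per SD of the component (SE 0.09, edgeR adjusted p 0.000153), and Cdh1 fell by 0.51 (SE 0.11, adjusted p 0.00126). Both were also called under each alternative. Lhpp rose by 0.23 (SE 0.05, adjusted p 0.00183) and Ctsc fell by 0.17 (SE 0.05, adjusted p 0.0163), and neither was called with the transcript length offset. Ftcd rose by 0.07 (SE 0.03, adjusted p 0.0396), which was lost there and with no filter on low counts. Glul (0.06, adjusted p 0.385), Cyp2e1 (0.10, adjusted p 0.216) and Cyp2f2 (-0.04, adjusted p 0.621) were not called. The labels do not give the time at which each liver was taken, so time of day and other sources of clock variation cannot be told apart.

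**Figure D5:**
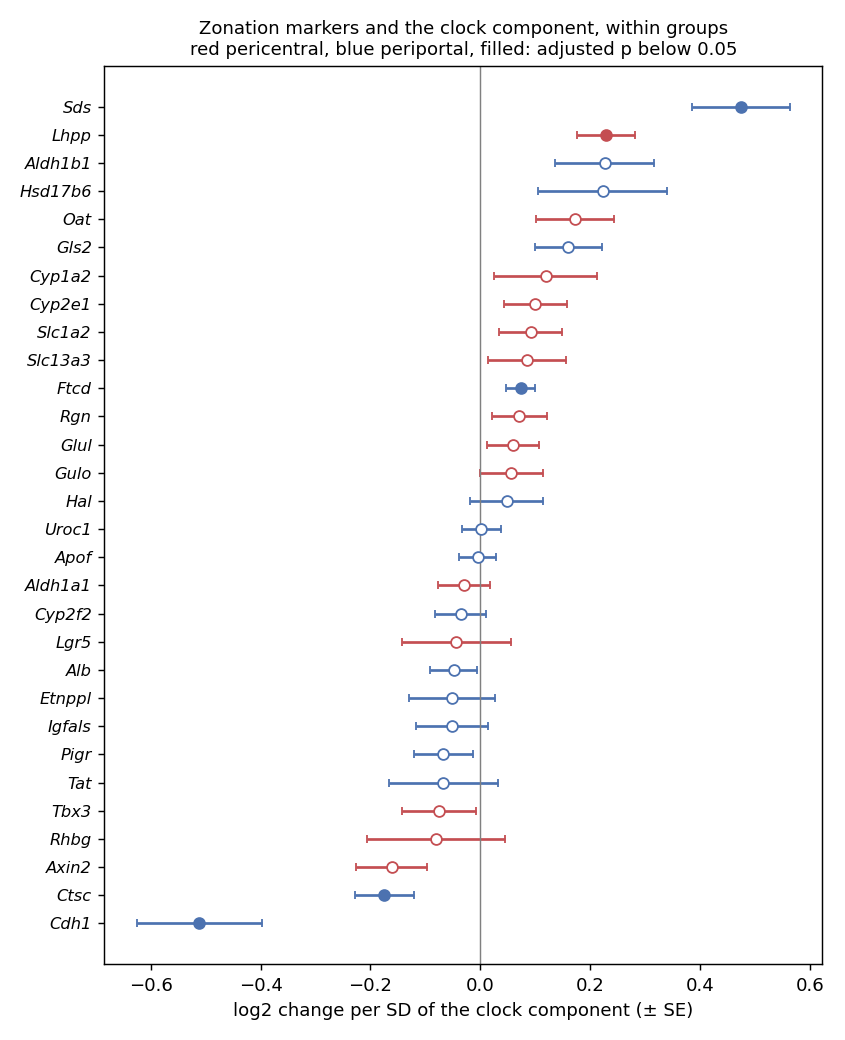
Log2 change of each member per SD of the clock component (± SE) in a fit with the 6 groups over 55 mice, pericentral in red and periportal in blue, with filled points at an adjusted p below 0.05. Sds (0.47) and Cdh1 (-0.51) lie at the ends, and 5 points are filled.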

How the data were processed

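Liver RNA of 56 mice was sequenced. The authors ran Salmon 1.4.0 on GENCODE M26 transcripts (GRCm39), and each deposited file holds estimated counts per transcript, not normalised, and TPM, which the authors' run scaled by effective length. Here transcripts were joined to GENCODE vM39 genes (98.8% matched, with 99.76% to 99.86% of reads), and estimated counts were summed per gene and rounded. Genes were tested with edgeR 4.0.16 in R 4.3.3 (quasi-likelihood test, TMM, filterByExpr, a fit of the groups compared, Benjamini-Hochberg adjustment over all genes), and the fit was tested on simulated data. The alternatives were DESeq2 1.42.0, RLE factors, no filter, all 6 groups in 1 fit, the clock component as a covariate, a transcript length offset and keeping PP mouse 7. For LL against PP only, without and with GKA, each mouse was also left out in turn. Log2 CPM has a prior count of 2 and log2 TPM a pseudocount of 1. Pair correlations used 100000 two-sided permutations within groups (SciPy 1.17.1). The members, lists and tests were chosen with earlier results of these data known, and the clock fit and the centred TPM scale (each mouse's median offset from log2 CPM removed) were added after seeing the data. Values by group are given for 10 members chosen by name and those of smallest unadjusted p until 20 were described, and the others by range.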

Additional observations from a re-analysis of the deposited data

Results flagged for a closer look

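In 6 of 138 groups of values (4.35%), over the zone balance, the mean of each zone and the 20 members described, the lowest or highest mouse stood far from its nearest neighbour by Dixon's ratio, and chance flags about 1 in 20. Cyp1a2 was at 59.7 CPM in PP mouse 18 with GKA, and the next mouse had 116 CPM. Slc1a2 was at 99.6 CPM in PL mouse 31 with GKA, above the next at 78.9 CPM. Cyp2f2 was at 309 CPM in LL mouse 53 with GKA, below the next at 571 CPM. Hal was at 101 CPM in LL mouse 42, below the next at 158 CPM. Aldh1a1 was at 796 CPM in PP mouse 14 with GKA, below the next at 1372 CPM. Cdh1 was at 1.83 CPM in LL mouse 41, below the next at 6.08 CPM.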

How the results depend on the processing

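Tbx3 was called for LL against PP with GKA by DESeq2 and with all 6 groups in 1 fit (1 member in each), and no other alternative called a member in a pairwise comparison. With each PP or LL mouse left out, members called ranged from 0 to 0 for LL against PP without GKA and from 0 to 0 with GKA. The other comparisons were not run this way. Members below an unadjusted p of 0.05 depended more on the setting. With the transcript length offset there were 2 for LL against PP and 3 for the same comparison with GKA, 4 for LL against PL with GKA, and 1, 5 and 4 for GKA in PP, PL and LL, and 2 members were called for the clock component. With all 6 groups in 1 fit there were 3 for PL against PP, 1 for LL against PL, 4 for PL against PP with GKA, 2 for LL against PL with GKA and 0 for GKA in PL. For PL against PP with GKA there were 5 with DESeq2 and 4 with no low-count filter or with the clock covariate, for GKA in PL 1 with no filter, and for GKA in LL 4 with the clock covariate. Leaving out mice gave 2 to 7 for LL against PP (2 without PP mouse 2 or LL mouse 39, 7 without PP mouse 4 or LL mouse 42) and 4 to 7 with GKA. Etnppl for LL against PL was 0.39 on the log2 scale and turned to -0.0376 with the length offset. The zone balance differences moved by less than 1 SD in all 48 alternatives, but some changed in size or sign. On the log2 TPM scale PL against PP without GKA was 0.19, above its pooled SD of 0.17. With the median over members in place of the mean, LL against PP with GKA went from 0.05 to 0.35. LL against PL with GKA (0.12) and GKA in PP (-0.08) then had the opposite sign to the main setting. LL against PP without GKA also changed sign in some settings. The cause of these changes was not tested.

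Pair correlations depended on the scale. Glul with Cyp2e1 was 0.0157 with PP mouse 7 kept, and Cyp2f2 with Hal was 0.303 with the clock component removed. On the log2 TPM scale, r was 0.395 for Glul with Oat, 0.450 with Slc1a2, 0.222 with Rhbg, 0.395 with Cyp2e1 and 0.550 with Cyp2f2, 0.337 for Lgr5 with Axin2, 0.594 for Cyp2f2 with Hal and 0.589 for Cyp2e1 with Cyp2f2. On the centred TPM scale it was -0.131 for Glul with Oat, -0.0272 with Rhbg and -0.0726 with Cyp2f2, 0.450 for Lgr5 with Axin2, 0.234 for Sds with Tat, 0.407 for Cyp2f2 with Hal and 0.105 for Cyp2e1 with Cyp2f2. No paired analysis was possible because replicate numbers name individual mice and none is shared between groups.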

Other observations

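PP mouse 7, which enters only the alternatives that keep it, had a zone balance of -2.09, below the -1.85 of the lowest of the other 55 mice. Its pericentral mean was 5.64 log2 CPM, while its periportal mean of 7.72 log2 CPM lay within the range of the other PP mice. With scaling factors that include this mouse, Cyp2e1 was at 1535 CPM, against 3439 to 5429.6 CPM in the other PP mice. Its log2 difference from their mean was -1.60 for Cyp2e1, -1.21 for Rgn, -1.02 for Gulo and -0.70 for Glul. Of the periportal markers, Sds (0.99), Aldh1b1 (0.98) and Etnppl (0.58) were above all other PP mice, and Igfals (-0.82), Cyp2f2 (-0.37) and Ftcd (-0.25) were below them. For 6 members, Igfals among them, this mouse was below all other mice, and for 0 above them.

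The TPM values share a total that differed in make-up between mice: Mup9 took between 0.122% and 52.7% of it and mt-Atp8 between 0.361% and 51.6%, genes chosen after their values were seen. The median offset of log2 TPM from log2 CPM ranged from -2.27 to -0.81 over mice. The estimated effective length of Glul ranged from 498 to 2617 bases between libraries, and that of Cyp2e1 from 642 to 1657 bases.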
